A study of Mus musculus with 6 samples.

Results

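Metallothioneins are small, cysteine-rich proteins that bind zinc and copper in the cell. The genes examined here were the liver metallothioneins Mt1 and Mt2, the zinc-sensing transcription factor Mtf1, the exporters Slc30a1 and Slc30a10, and the importers Slc39a4, Slc39a5, Slc39a8 and Slc39a14. They were taken by gene name from the deposited table, and all 9 were found among its 32597 genes. The adult group was liver of wild type male C57BL/6 mice, an inbred laboratory strain, at 6 months of age. The young group was liver of wild type male mice of the same strain, for which the labels give the age as 3 weeks, as 3 to 4 weeks and as 1 month. Each group had 3 libraries, and each library held pooled RNA of 3 mice, or 9 mice per age if no mouse was in more than 1 pool. The authors deposited 1 FPKM value per gene and age, so no value per library and no spread between libraries can be given. FPKM by definition is the fragments counted on the gene, scaled for transcript length and for mapped fragments. How the libraries were scaled here is not stated. Rises and falls are named only where the q-value (p adjusted for multiple testing) of the authors' Cuffdiff test was under 0.05.

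In mammalian cells free zinc is kept low by such binding and by transport. ZnT proteins, encoded by Slc30a genes, move metal out of the cytosol, and ZIP proteins, encoded by Slc39a genes, move it in. When zinc rises, MTF1 binds metal response elements upstream of Mt1, Mt2 and Slc30a1 and raises their transcription. In liver the metallothioneins also respond to glucocorticoids and to IL-6, and they are known to be abundant in the liver of newborn rodents.

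Mt1 and Mt2 lie side by side on chromosome 8 of GRCm38 and are read in the same direction. Per the deposited table Mt2 spans 94172618 to 94173567 and Mt1 spans 94179089 to 94180325, with 5521 bases between them. In GENCODE M21, an annotation of the same build, the transcript of each gene with the earliest start has 3 exons. The 2 promoters are shown because these were the members that fell together. They are the RefSeq promoter windows of GRCm38.p6, plus strand, up to the first base of GENCODE exon 1, with matches to the metal response element in capitals. The letters searched were TGCACNC and TGCGCNC, on both strands, which can overlap each other on opposite strands.
Mt2, chr8:94172368-94172663: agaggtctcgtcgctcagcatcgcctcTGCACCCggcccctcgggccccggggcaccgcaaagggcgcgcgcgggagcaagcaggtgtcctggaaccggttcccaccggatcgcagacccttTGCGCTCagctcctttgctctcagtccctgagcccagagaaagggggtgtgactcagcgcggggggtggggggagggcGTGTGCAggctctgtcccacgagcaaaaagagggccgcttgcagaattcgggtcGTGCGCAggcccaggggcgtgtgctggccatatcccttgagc
Mt1, chr8:94178839-94179081: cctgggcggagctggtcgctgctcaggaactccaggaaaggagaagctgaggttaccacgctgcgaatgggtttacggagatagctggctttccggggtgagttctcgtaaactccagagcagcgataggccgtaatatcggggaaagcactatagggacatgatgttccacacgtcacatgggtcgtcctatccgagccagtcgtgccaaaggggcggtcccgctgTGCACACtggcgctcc

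These stretches held 4 matches for Mt2 and 1 for Mt1. The annotated exon 1 of both genes begins upstream of a TATA box motif (TATAAA, searched on both strands), which lay 95 bases before the start codon in Mt2 and 101 bases before it in Mt1. The search was therefore carried on through the exon 1 leader, the stretch from the first base of the exon to the start codon. The leader held 3 further metal response element matches in Mt2 and 4 in Mt1, printed here with 4 flanking bases on each side and the match in capitals. The distance given is that of the first base of the match from the start codon.
Mt2, 172 bases before: gggcGTGTGCAggcg
Mt2, 153 bases before: gggcGCGTGCAtggt
Mt2, 119 bases before: ctttTGCGCTCgacc
Mt1, 220 bases before: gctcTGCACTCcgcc
Mt1, 202 bases before: aaagTGCGCTCggct
Mt1, 138 bases before: tgctGGGTGCAaacc
Mt1, 124 bases before: ccttTGCGCCCggac
In all, 7 matches lay in the 480 bases before the start codon of Mt2 and 5 in the 472 bases before that of Mt1. As background, 0.369% of 134866 GENCODE transcripts held at least as many matches as Mt2 in a first stretch of the same 184 bases, and 0.102% of 133810 held at least as many as Mt1 in a first stretch of 229 bases. Transcripts of 1 gene share sequence and are not independent. These shares are no test of the metallothioneins, since both genes are known MTF1 targets and were shown because they fell. In both genes the stretch also reached upstream of the TATA box motif, so it may differ in kind from the background stretches. An antioxidant response element match (TGACNNNGC, both strands) lay 309 bases before the start codon in Mt2 and 170 bases before it in Mt1. It did not overlap a metal response element match in either gene.

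**Figure D1:**
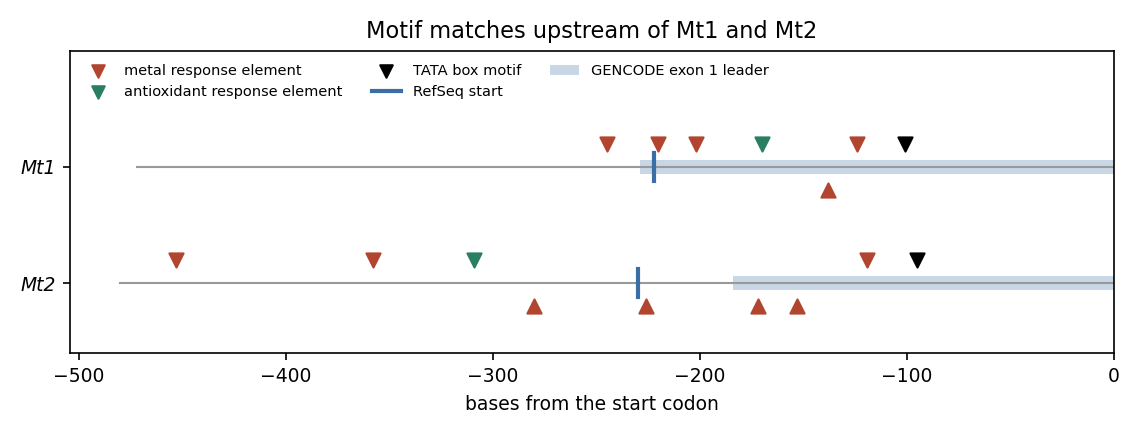
Matches to 3 motifs upstream of Mt1 (upper line) and Mt2 (lower line), plotted by distance of their first base from the start codon in bases; triangles above a line are matches on the gene's strand and those below it are on the opposite strand. Mt1 has 5 metal response element matches and Mt2 has 7, and in both genes the TATA box motif lies inside the annotated exon 1 leader.

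RefSeq promoter windows of 300 bases (250 before the start and 50 from it on) were matched for 7 of the 9 genes. Over all 32851 windows, 25.7% held at least 1 metal response element match, 7.11% at least 2, 1.97% at least 3 and 0.517% at least 4. The Mt2 window held 4 matches and the Mt1 window 3. Both genes are known MTF1 targets, so these counts beside the background are no independent test. Among the other members, both exporter windows held at least 2. The matches of Slc30a1 are shown because MTF1 is known to act on it. Those of Slc30a10, the other exporter, are shown beside them, and an action of MTF1 on Slc30a10 was not tested. Positions count from 0 at the RefSeq start.
Slc30a1, position -43: ttccGAGTGCAaagc
Slc30a1, position 30: ggccGAGCGCAgtcg
Slc30a10, position -233: agcgGTGCGCAcacc
Slc30a10, position -232: gcggTGCGCACaccc
Slc30a10, position -73: ccaaTGCGCCCctcc
The first 2 matches of Slc30a10 are on opposite strands and overlap. Slc39a5 and Slc39a8 each had 2 windows, of which 1 held 1 match, and the Mtf1 window held none. These letters are matches and not shown to be bound, and their absence in a window says nothing of the factor.

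Both metallothionein mRNAs fell with age to about the same share of their young level. Mt1, the more abundant of the 2, fell to 36.3 FPKM in adult liver, against 103.5 FPKM in young liver. Mt2 fell to 22.0 FPKM in adult liver, against 66.3 FPKM in young liver. Adult levels were 35.1% of the young level for Mt1 and 33.1% for Mt2. The log2 fold, computed as log2((adult FPKM + 1)/(young FPKM + 1)), was -1.49 for Mt1 and -1.55 for Mt2. For each gene the deposited p-value was 5e-05, which is the smallest of the authors' deposited table and is shared by 554 genes, and the q-value was 0.00189. Mt2 stood at 0.605 of the Mt1 level in adult liver and at 0.641 of it in young liver, so the 2 mRNAs stood in a similar proportion at both ages. In whole liver, fewer cells of a type and less RNA per cell cannot be told apart.

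The comparison covered 11741 genes that the authors had tested and that reached 1 FPKM in at least 1 age group. Of these, 7.47% were called in either direction, 3.48% being called lower in adult liver and 3.99% higher. Of the 8 members compared, 2 were called lower, Mt1 and Mt2, and none was called higher. A count of 0 higher among 8 is near the background of 3.99% and is no result about the members. At an unadjusted p under 0.05 in the authors' Cuffdiff test, 5 of the 8 members were lower and 1 was higher, where 7.55% of all genes compared were lower and 8.51% higher. The 5 lower members include Mt1 and Mt2. The median log2 fold was -0.36 over the 8 members and 0.0033 over all genes compared. The members were chosen with earlier results of these data known, so these counts and medians are no independent test. Mt2 and Mt1 ranked 120 and 124 from the lowest log2 fold among the genes compared, and 33 called genes, Mt2 among them, had a lower log2 fold than Mt1.

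**Figure D2:**
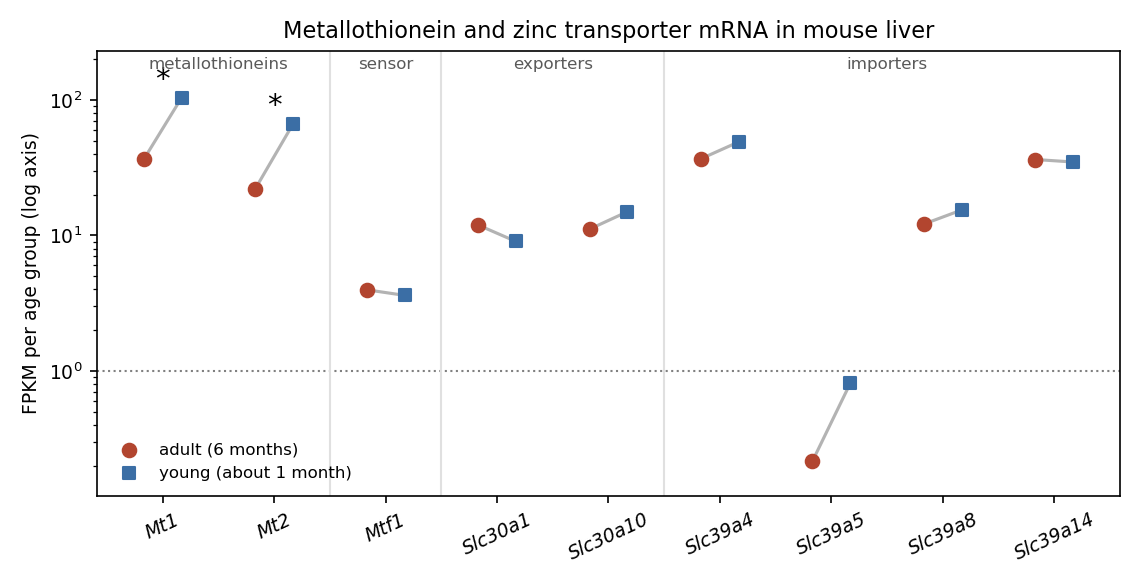
FPKM of the 9 genes in adult liver (circles) and young liver (squares) on a log axis, 1 value per age group with no replicate spread; an asterisk marks a q-value under 0.05 and the dotted line marks 1 FPKM. Mt1 and Mt2 are lower in adult liver, while none of the transporters was called.

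In adult liver Mt1 stood near the level of the main importers and Mt2 below them, and in young liver both stood above every other gene of the group. In young liver Mt1 and Mt2 had the highest FPKM of the 9 genes, followed by Slc39a4, Slc39a14, Slc39a8, Slc30a10, Slc30a1, Mtf1 and Slc39a5. In adult liver the order was Slc39a4, Mt1, Slc39a14, Mt2, Slc39a8, Slc30a1, Slc30a10, Mtf1 and Slc39a5. Whether neighbours in these orders differ beyond the spread of libraries cannot be said, since the table gives none. Levels of different genes also depend on the transcript lengths used for FPKM, and the authors' annotation release is not stated. Slc39a4, Mt1 and Slc39a14 lay at 36.7, 36.3 and 36.3 FPKM in adult liver. Mt1 had 1.00 times the FPKM of Slc39a14 in adult liver and 2.98 times its FPKM in young liver. The summed FPKM of Mt1 and Mt2 was 58.3 in adult liver and 169.8 in young liver, which is 0.00761% of all FPKM in adult liver and 0.0223% in young liver. Among all genes listed, Mt1 ranked 2006 by FPKM in adult liver and 879 in young liver, and Mt2 ranked 2948 in adult liver and 1241 in young liver.

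Neither Bbs2 nor Nup93, the only neighbouring genes compared, was called or had an unadjusted p under 0.05 in the authors' Cuffdiff test. Over all genes compared 7.47% were called, and 7.55% were lower and 8.51% higher at that p. No call among so few genes is near these shares and is no result about the locus. Within 100 kb of the pair the table lists Bbs2, a ciliary gene, Mt4 and Mt3, metallothioneins of stratified epithelium and of brain, and the nuclear pore gene Nup93. Mt4 was listed at 0 at both ages, and Mt3 at 0.0169 FPKM in adult liver and 0 in young liver. Neither was tested by the authors. Bbs2 was at 1.02 FPKM in adult liver and 0.917 in young liver, with a q-value of 0.997. Nup93, separated from the end of Mt1 by 34271 bases, was at 2.28 FPKM in adult liver and 2.63 in young liver, with a q-value of 0.838. The difference in fold between these genes and the metallothioneins was not tested.

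Mtf1, the transcription factor that senses zinc, was not called. It was at 3.97 FPKM in adult liver and 3.61 in young liver, a log2 fold of 0.11, with a deposited p of 0.774 and a q-value of 0.997. This is an mRNA level and says nothing of the protein's activity.

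Neither exporter was called, and 1 was higher and the other lower in adult liver. Slc30a1 (ZnT1), the zinc exporter of the cell surface, was at 11.9 FPKM in adult liver and 9.02 in young liver, with a log2 fold of 0.37, a deposited p of 0.0099 and a q-value of 0.130. Slc30a10 (ZnT10), known as a manganese exporter whose loss in humans causes manganese overload, was at 11.1 FPKM in adult liver and 15.0 in young liver. Its log2 fold was -0.40, with a deposited p of 0.00495 and a q-value of 0.0784. Slc30a10 thus stood at 0.931 of the Slc30a1 level in adult liver and at 1.66 times that level in young liver. Their summed FPKM was 23.04 in adult liver and 23.97 in young liver.

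None of the importers was called. Slc39a4 (ZIP4), the importer mutated in human acrodermatitis enteropathica, was at 36.7 FPKM in adult liver and 49.0 in young liver. Its log2 fold was -0.41, with a deposited p of 0.0083 and a q-value of 0.115. Slc39a8 (ZIP8), which carries zinc and manganese, was at 12.1 FPKM in adult liver and 15.4 in young liver, with a log2 fold of -0.32 and a q-value of 0.285. Slc39a14 (ZIP14), a liver importer of zinc, iron and manganese that is induced in inflammation, was at 36.3 FPKM in adult liver and 34.8 in young liver, with a log2 fold of 0.060 and a q-value of 0.997. The fourth importer, Slc39a5 (ZIP5), was under 1 FPKM at both ages, at 0.216 FPKM in adult liver and 0.813 in young liver. It was left out of the comparison. The authors' deposited table gives it a q-value of 0.806, although the adult value was 26.6% of the young one. The 4 importers summed to 85.3 FPKM in adult liver and 99.97 in young liver.

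The uncalled differences of Slc30a1, Slc30a10, Slc39a4 and Slc39a8 were smaller than those of any called gene at such levels. Among 412 called genes with at least 10 FPKM at 1 age, the smallest absolute log2 fold was 0.43 and the median was 0.77. All 4 lie under that smallest value on the same log2 scale, so their q-values do not show that the levels were equal.

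**Figure D3:**
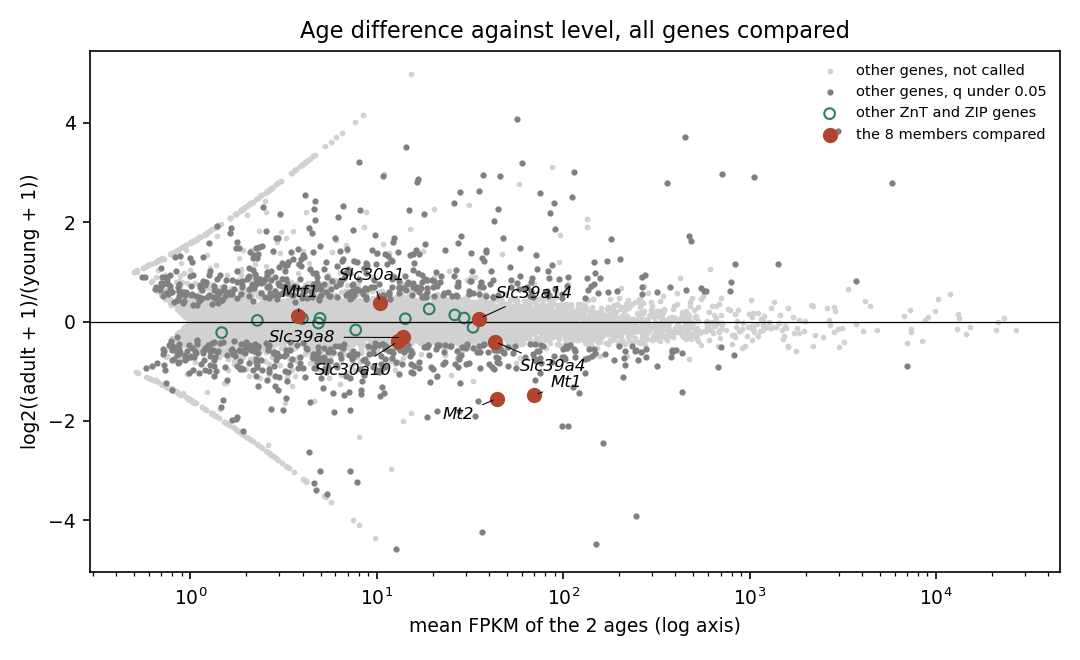
The log2 fold of adult over young liver (vertical axis, 1 FPKM added to each value) against the mean FPKM of the 2 ages on a log axis for the 11741 genes compared; dark grey points had a q-value under 0.05. Mt1 and Mt2 lie at -1.49 and -1.55, while the other 6 members lie between -0.41 and 0.37 among the genes not called.

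The remaining zinc transporters showed no called difference. Of the 10 ZnT and 14 ZIP genes of the table, members included, 17 could be compared and none was called. Over all genes compared 7.47% were called, so 0 of 17 is near the background and is no result about these genes. At an unadjusted p under 0.05 in the Cuffdiff test there were 3 lower and 1 higher, which are the members Slc30a10, Slc39a4, Slc39a8 and Slc30a1; of all genes compared, 7.55% were lower and 8.51% higher at that p. The median log2 fold of the 17 was 0.056, with a range of -0.41 to 0.37. The most abundant ZnT genes outside the members were Slc30a9, at 27.5 FPKM in adult liver and 24.96 in young liver, and Slc30a5, at 20.9 FPKM in adult liver and 17.4 in young liver. The most abundant such ZIP genes were Slc39a7, which releases zinc from the endoplasmic reticulum, at 31.5 FPKM in adult liver and 34.2 in young liver, and Slc39a1, at 30.1 FPKM in adult liver and 28.7 in young liver. Over all 24 genes the summed FPKM was 271 in adult liver and 279 in young liver, or 97.0% of the young sum.

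Genes linked to zinc or to metallothionein control were called in a few cases. Of all genes compared, 3.48% were called lower and 3.99% higher. At an unadjusted p under 0.05 in the Cuffdiff test, 7.55% were lower and 8.51% higher. A count of 0 calls in lists of this size is near these shares and is no result about the list. Of 6 further genes known as MTF1 targets, 1 fell and none rose, also at an unadjusted p under 0.05. That gene was Ndrg1, which also responds to low oxygen, at 6.53 FPKM in adult liver and 13.9 in young liver, with a log2 fold of -0.99 and a q-value of 0.00189. The median log2 fold of this list was -0.18. The list was not split by the direction in which MTF1 acts on each gene, and its member Slc39a10 is also among the ZIP genes above. Of 12 genes of copper and manganese handling, none was called in either direction by the Cuffdiff test, and none had an unadjusted p under 0.05. The most abundant were Sod1, the copper and zinc superoxide dismutase, at 1107 FPKM in adult liver and 1239.8 in young liver, and the copper-carrying plasma protein Cp, at 986 FPKM in adult liver and 1076 in young liver. Of 15 zinc enzymes, 2 fell and none rose, and at an unadjusted p under 0.05 there were 3 lower and none higher. Both were carbonic anhydrases: Car2 was at 3.44 FPKM in adult liver and 10.8 in young liver with a log2 fold of -1.41, and Car14 at 20.4 FPKM in adult liver and 35.0 in young liver with a log2 fold of -0.75. The median log2 fold of the zinc enzymes was -0.045.

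In the glucocorticoid list of 12 genes, 3 fell and none rose, beside 3.48% called lower and 3.99% called higher over all genes compared. By direction alone 8 of the 12 were lower and 4 higher in adult liver, with a median log2 fold of -0.14. Fkbp5, a chaperone of the glucocorticoid receptor and its target, was at 7.25 FPKM in adult liver and 13.9 in young liver, with a q-value of 0.00350. Tsc22d3, which encodes the glucocorticoid-induced leucine zipper, was at 54.1 FPKM in adult liver and 97.1 in young liver, with a q-value of 0.00189. The transcription factor Zbtb16 was at 1.35 FPKM in adult liver and 2.10 in young liver, with a q-value of 0.0424. Their log2 folds were -0.85 for Fkbp5, -0.83 for Tsc22d3 and -0.40 for Zbtb16. The receptor gene Nr3c1 itself, which was picked with its values known, was at 18.7 FPKM in adult liver and 18.8 in young liver. At an unadjusted p under 0.05 this list had 4 lower and 1 higher of 12, beside 7.55% lower and 8.51% higher over all genes compared. The higher gene was Errfi1, at 379 FPKM in adult liver and 284 in young liver, with a q-value of 0.170. Of the 7 IL-6 and STAT3 genes compared, 1 rose and none fell, and none was lower at an unadjusted p under 0.05. The risen gene was Socs3, the feedback inhibitor of this pathway, at 6.03 FPKM in adult liver and 1.57 in young liver, with a log2 fold of 1.45 and a q-value of 0.00189. The median log2 fold of these 7 was 0.015. Any part of these genes in the fall of the metallothioneins was not tested.

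**Figure D4:**
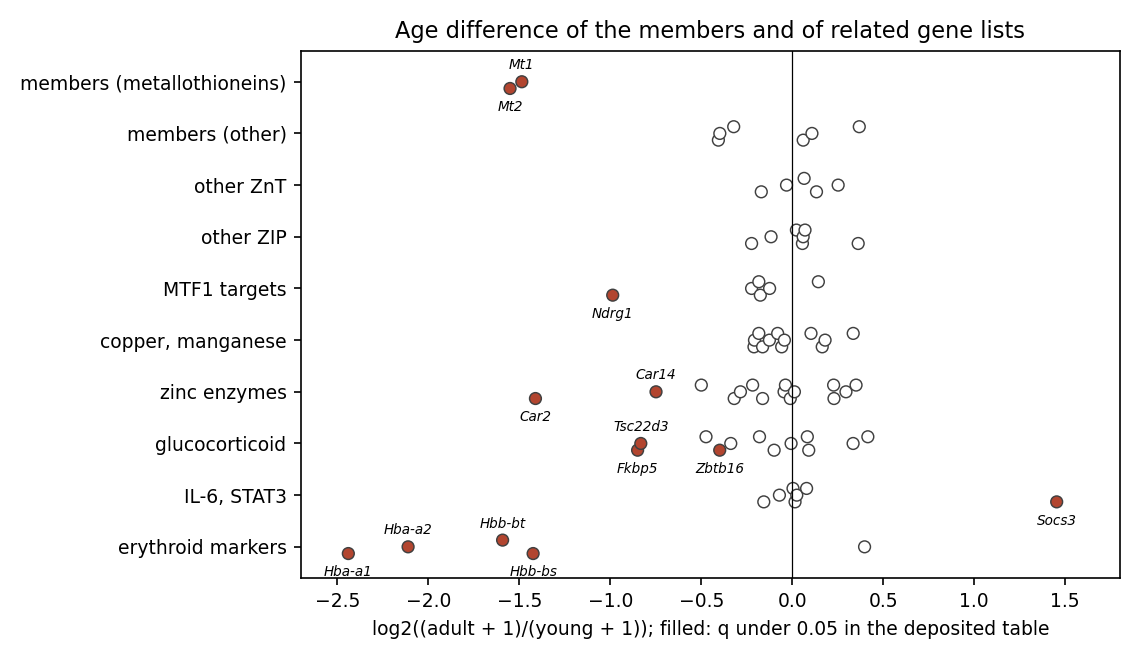
The log2 fold of adult over young liver (1 FPKM added to each value) for each compared gene of the named lists, 1 point per gene; filled points had a q-value under 0.05 and are named. The 2 metallothioneins lie near -1.5, apart from the open points of the transporters between -0.41 and 0.37, and the globin genes among the erythroid markers lie between -2.44 and -1.42.

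The libraries carried liver markers at both ages. For the counts given here, 3.48% of all genes compared were called lower and 3.99% higher. At an unadjusted p under 0.05 in the Cuffdiff test, 7.55% were lower and 8.51% higher. Hepatocyte markers summed to 16271 FPKM in adult liver and 19867 in young liver, with none of 7 called and 1 lower at an unadjusted p under 0.05; albumin, Alb, was listed at 0 at both ages with the status LOWDATA and could not be used. Markers of blood cells moved with age beside the metallothioneins. Of 5 erythroid markers 4 fell, all globin genes, and the list summed to 412 FPKM in adult liver and 1180.5 in young liver. The other, the heme synthesis gene Alas2, went the opposite way, at 73.2 FPKM in adult liver and 55.3 in young liver. It was higher at an unadjusted p under 0.05 in the Cuffdiff test but was not called, with a q-value of 0.368. Both T cell markers compared, of 4, rose, but they were under 1 FPKM in young liver and entered the comparison only through their adult values; the list summed to 9.005 FPKM in adult liver and 1.90 in young liver. Of the 4 Kupffer cell markers found, 2 rose and 1 was lower at an unadjusted p under 0.05, Clec4f, at 57.7 FPKM in adult liver and 79.6 in young liver. This list summed to 219 FPKM in adult liver and 196 in young liver. Of 5 sinusoidal endothelial markers 2 fell (25.2 FPKM in adult and 35.1 in young liver), and of 3 compared cholangiocyte markers 2 fell (43.5 FPKM in adult and 50.1 in young liver, over all 5); both that fell were under 1 FPKM in adult liver and entered through their young values. None of 4 stellate cell markers was called, with 2 lower at an unadjusted p under 0.05 and sums of 147 FPKM in adult and 156 in young liver. Of the pancreatic markers, given because Slc39a5 is also a pancreatic gene, Prss2 and Amy2a5 were listed at 0 at both ages, and neither of the 2 compared was called or had an unadjusted p under 0.05. The part of these markers in the fall of Mt1 and Mt2 was not tested.

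Genes with the fold most like that of the metallothioneins were sought among those with at least 10 FPKM at 1 age. The mean log2 fold of Mt1 and Mt2 was -1.52, and the 5 nearest genes lay within 0.073 of it. They were the IGF binding protein gene Igfbp3 (5.01 FPKM in adult and 15.9 in young liver), the steroid hydroxylase gene Cyp17a1 (3.06 FPKM in adult and 10.3 in young liver), Cyp2a22 (3.89 FPKM in adult and 12.5 in young liver), the fatty acid binding protein gene Fabp5 (64.5 FPKM in adult and 178 in young liver) and the beta-globin gene Hbb-bt (16.98 FPKM in adult and 53.2 in young liver). The authors' deposited table gives all 5 a q-value of 0.00189. Likeness over 2 values per gene is only a likeness of size and direction.

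Reads could be split or shared for some members. Mt1 and Mt2 transcripts in GENCODE M21 shared none of their 31-base words, and 3 of 573 such words of Mt2 and 0 of 1273 of Mt1 occurred in transcripts of other genes, so the 2 can be told apart at that length. Annotated genes overlap Mt2 (1 antisense gene), Mtf1 (2), Slc30a1 (1), Slc30a10 (1), Slc39a5 (1) and Slc39a8 (3), and no source used here says whether counting used strand. No annotated gene overlaps Mt1, Slc39a4 or Slc39a14.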

How the data were processed

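Liver RNA was sequenced in 6 libraries, 3 per age. Reads were processed with TopHat2 2.0.11, Cufflinks 2.2.1 and Cuffdiff against GRCm38, per the submitters' processing notes. The annotation release, library normalization and strand setting are not stated in any source used here. The authors deposited 1 FPKM value per gene and age. Their deposited table also holds a p-value, a q-value, a test score and a log2 fold per gene from their own comparison. No counts are given, so the depth behind each value is unknown and no test between libraries was possible; the labels' protocols give only an approximate average depth. The q-values rest on pools of mice, and nothing says whether the pools were processed separately. If mice were shared between pools, the q-values may cover technical spread only, and otherwise they cover spread between pools and not between single mice.

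Genes with the test status OK (16290) and at least 1 FPKM at 1 age were compared. A gene was called at q under 0.05. Folds are log2 with 1 FPKM added, which understates the change of low genes. The named genes were all members, up to 4 called genes per list, taken by size of fold (otherwise the 2 most abundant), the neighbours of Mt1 and Mt2 within 100 kb and the 5 genes of nearest fold. Members and lists were chosen with earlier results of these data known. Promoters are from RefSeq (GRCm38.p6), gene models and transcripts from GENCODE M21. Python 3.11.15, pandas 2.3.3 and SciPy 1.17.1 were used. The fold (with nothing added), the calling step and the Benjamini-Hochberg adjustment were tested on simulated data. This does not test the authors' q-values, on which the calls rest.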

Additional observations from a re-analysis of the deposited data

How the results depend on the processing

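Each of the 125 alternative values kept its fold direction or, for a count of calls, stayed within 1.5 times its own. This stability was largely fixed in advance and is no test of the results. A pseudocount cannot change the direction of a fold. The smallest fold of a member, 0.060 for Slc39a14, was larger than the largest shift by scaling. Many counts were 0 in every setting, among them those of Mt3 and Mt4, which were never compared. With no or a smaller pseudocount, or with adult values scaled to the same total, to a median fold of 0 or to the total without the Mup genes, which shifted folds by at most 0.042 (log2), the log2 fold ran from -1.51 to -1.45 for Mt1 and from -1.59 to -1.51 for Mt2. The median of the compared members ran from -0.40 to -0.32 with the smaller pseudocount, these scalings and the other minimum FPKM values. It was not computed with no pseudocount. Mt1 and Mt2 were called lower at q under 0.01, at a minimum of 5 FPKM, with no minimum and with the authors' p-values adjusted by Benjamini-Hochberg over the genes compared. At q under 0.1 Slc30a10 was also called lower, as was Sgk1 in the glucocorticoid list. Zbtb16 was not called at q under 0.01 and was left out at a minimum of 5 FPKM. The fold of Slc39a5 depends on the pseudocount, at -0.58 with 1 FPKM added and -1.91 with none. No paired analysis was possible because the table holds 1 value per age and none per library, and for the same reason leaving out each replicate was not run. Depth is unknown, so how far it limits the genes with low FPKM, such as Slc39a5, cannot be given.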

Other observations

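The deposited test score and p-value do not follow a normal curve. A normal curve would give the score of Slc30a10 a p of 0.116 and that of Slc39a4 a p of 0.125, against deposited p-values of 0.00495 and 0.0083. Of 11511 compared genes with a score, 97.9% had such a normal p above the deposited one, and 24.1% of the called genes had a score under 1.96 in size. For Mt1 and Mt2 the scores, -5.12 and -5.00, would give 2.98e-07 and 5.59e-07 by that curve. No standard error was therefore derived from the score.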
